A study of Mus musculus with 28 samples.

Results

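Livers and muscles that carry the same number in their labels were compared gene by gene, to find transcripts that stood high or low together in both tissues apart from any effect of treatment. The set holds 24 of the 28 libraries of the series, 12 livers and 12 muscles taken at 40 d, which form 12 pairs by label number (2_1, 2_3, 2_4, 2_5, 3_2 and 6_1 in the vehicle group, 4_5, 5_1, 5_2, 5_3, 5_4 and 5_5 in the treated group). The labels do not state that a liver and a muscle with the same number came from 1 mouse, so the pairing rests on the number alone. Of 53801 genes with Ensembl identifiers in both tables, 9367 had at least 1 FPKM (fragments per kilobase of gene, scaled by library size) in at least 6 libraries of each tissue. For these genes log2(FPKM + 1) was centred on the mean of its treatment group and tissue, and the same gene was correlated between liver and muscle over the 12 pairs.

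All animals were male Lepob/Lepob mice on the C57BL/6J background, which make no functional leptin and become obese. They ate the AMLN diet, rich in fat, fructose and cholesterol, for 20 weeks from an age of 4 weeks, which gives a fatty and inflamed liver. One group of 6 received daily injections into the abdomen of aspirin (acetylsalicylate) at 3.0 mg/kg together with trimetazidine at 5.0 mg/kg, and the vehicle group of 6 received the solvent, both for 40 d on the same diet. The 4 libraries at 24 h carry no such number and could not be paired. Lights were on in the daytime. The hour of death and any fasting before it were not given in the sources used here. First digits of the numbers were never shared between the groups, so whatever they stand for cannot be told apart from treatment. Centring within group removes any mean difference between the groups from the values that follow.

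Tissues of 1 animal share their blood, their hormones and the hour at which they were collected. The circadian clock is a feedback loop that runs in nearly every cell: Clock and Arntl (BMAL1) pair to switch on the Per and Cry repressors and the nuclear receptors Nr1d1 and Nr1d2, which in turn hold Arntl and Nfil3 down. Dbp, Tef and Hlf are activators that read the loop out through the D-box, a short DNA site at which Nfil3 competes as a repressor. Glucocorticoids, fasting, cytokines and circulating leukocytes are other signals that reach liver and muscle together.

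Promoters of clock genes that stood together in both tissues are shown for the sites through which the loop is known to work. The windows run from 250 bases before to 50 bases after an annotated start, from RefSeq on GRCm38.p6. They are written 5′ to 3′ on the strand of the gene. Capitals mark the E-box CACGTG, to which Clock and BMAL1 bind, or the D-box TTANGTAA. Each was searched on both strands, with overlapping matches allowed. Ciart (chr3:95882179-95882478, minus strand), a repressor within the loop, has 3 E-boxes, beginning at −116, −58 and −44 from the start. Per1 (chr11:69098699-69098998, plus strand) has 1 at −166, Cry1 (chr10:85185005-85185304, minus strand) has 1 at −60, and Per3 (chr4:151044616-151044915, minus strand) has 2 D-boxes, at −205 and −158.
Ciart: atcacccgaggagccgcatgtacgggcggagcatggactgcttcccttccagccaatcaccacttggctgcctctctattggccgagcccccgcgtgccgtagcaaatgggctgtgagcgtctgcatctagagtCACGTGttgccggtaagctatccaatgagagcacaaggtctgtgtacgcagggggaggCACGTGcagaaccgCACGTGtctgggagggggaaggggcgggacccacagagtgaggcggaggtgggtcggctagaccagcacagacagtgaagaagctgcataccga
Per1: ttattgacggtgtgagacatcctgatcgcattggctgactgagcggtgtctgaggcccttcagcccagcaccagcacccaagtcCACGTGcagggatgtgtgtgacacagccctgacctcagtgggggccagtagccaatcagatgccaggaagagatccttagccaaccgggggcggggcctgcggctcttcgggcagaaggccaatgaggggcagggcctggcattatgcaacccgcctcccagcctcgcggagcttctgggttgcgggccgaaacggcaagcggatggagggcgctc
Cry1: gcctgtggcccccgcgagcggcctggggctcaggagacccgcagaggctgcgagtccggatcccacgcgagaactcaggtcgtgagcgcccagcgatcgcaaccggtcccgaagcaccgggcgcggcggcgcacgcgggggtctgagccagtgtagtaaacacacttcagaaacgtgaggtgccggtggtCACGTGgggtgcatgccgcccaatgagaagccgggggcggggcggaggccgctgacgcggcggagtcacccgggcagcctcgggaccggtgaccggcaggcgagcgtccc
Per3: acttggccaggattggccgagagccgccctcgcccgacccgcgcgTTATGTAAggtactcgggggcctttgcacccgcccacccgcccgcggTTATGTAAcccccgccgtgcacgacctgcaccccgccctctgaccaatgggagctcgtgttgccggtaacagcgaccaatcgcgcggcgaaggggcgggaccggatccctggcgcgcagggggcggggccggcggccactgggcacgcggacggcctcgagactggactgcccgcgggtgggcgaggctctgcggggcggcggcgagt

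Of the clock genes tested, 15 had a promoter in the table, with 21 windows in all. Of these windows 5 held an E-box (in Per1, Cry1, Ciart and Tef) and 1 a D-box (in Per3). Over all 32851 promoters of this length, 7.15% held an E-box and 2.32% a D-box. The windows of Dbp, Nr1d2, Nr1d1 and Nfil3 hold neither run of letters, and the core letters AGAACA of the glucocorticoid response element, in 19.0% of all promoters, is in none of the 4 windows printed. A match is a description of the sequence only.

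Before the genes, the libraries were checked. The liver markers summed to between 36918 and 61254 FPKM in liver and to between 7.91 and 269.8 in muscle, and the muscle markers to between 56408 and 100061 in muscle and 2.63 to 10.4 in liver. The muscle labelled 3_2 had 98.0 FPKM of albumin (Alb) against 1.57 to 14.2 in the others, and liver 4_5 had the most muscle transcript. Adipoq, which defines adipocytes, lay between 37.9 and 281 FPKM in muscle and at or below 0.313 in liver. Livers held 16.8 to 18.9 M reads on genes and muscles 16.1 to 19.9 M. Livers 2_3 and 5_3 and muscles 6_1 and 5_5 stood apart from the rest: these 4 resembled one another across tissues and groups (r across genes 0.43 to 0.51), and their deviations correlated negatively with gene length (r across genes −0.44 to −0.31). Because no label number owns 2 of these libraries, leaving them out takes away 4 whole pairs, and values over the other 8 pairs are given below for the lists and genes they move most. This choice was made after seeing the profiles, and the 4 pairs left out were the 4 whose liver and muscle profiles had a negative r, so the higher median over all genes that remains (0.233) follows in part from the choice and values over 8 pairs are descriptions.

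As whole profiles, same-numbered livers and muscles were weakly alike. The correlation across the 9367 genes between a liver and the muscle of the same number averaged 0.0856 (SD 0.183, n = 12 pairs, range −0.156 to 0.463), against −0.0163 for other numbers of the same group. Permuting the numbers within each group over all 518400 pairings gave an exact two-sided p of 0.0715. The highest value belonged to pair 2_1 and the lowest to pair 5_5. In 7 of the 12 pairs the value was above 0.1, and 7 livers and 7 muscles were most like the library with their own number within their group. Over the 8 pairs the mean was 0.181, which is fixed in its direction by leaving out the 4 negative pairs. With the main axis of variation removed from each tissue the mean over 12 pairs was 0.127 (exact p = 1.929e-06, the smallest the pairings can give). That axis weighed most on livers 5_3 and 2_3 (0.62 and 0.47) and on muscles 5_5 and 6_1 (0.74 and 0.49). These are libraries of the 4 negative pairs, so this value is not independent of the choice of 8 pairs. With the axis kept and pair 2_1 left out, the mean was 0.0366 (exact p = 0.494). Profiles share the genes and, within a tissue, the scaling, so the correlation across genes is a description.

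**Figure D1:**
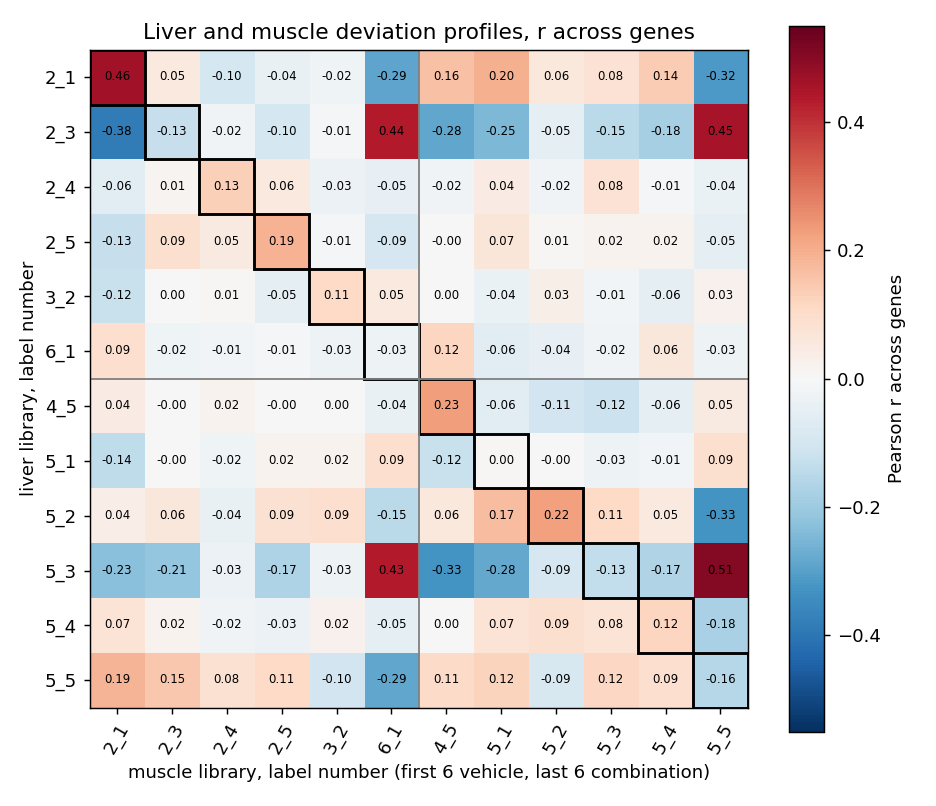
Pearson r across 9367 genes between the deviation profile of each liver (vertical) and each muscle (horizontal), with same-numbered pairs outlined and lines between the vehicle and treated groups. The outlined cells run from −0.16 to 0.46, and the darkest cells off the diagonal join livers 2_3 and 5_3 with muscles 6_1 and 5_5.

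Gene by gene, r had a median of 0.0742 (quartiles −0.172 and 0.316), and 57.8% of the 9367 genes were above 0. No gene passed an adjusted p under 0.05 in the exact permutation test with Benjamini-Hochberg adjustment: 0 positive (0%) and 0 negative (0%), with a lowest adjusted p of 0.247. At an unadjusted exact p under 0.05 there were 700 genes, 520 positive (5.55%) and 180 negative (1.92%). The Spearman test also called 0, with 688 at an unadjusted p under 0.05 and a lowest adjusted p of 0.127. The share of positive genes at an unadjusted p under 0.05 went with how much a gene varied between libraries: it was 2.46% in the tenth of genes with the smallest spread and 13.3% in the tenth with the largest. So no single gene is called here, and the r values below describe the genes at the top of the order.

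The 12 genes with the smallest exact p were Nfil3, Nr1d2, Cep83, Txnip, Tigar, Dbp, Sat1, Plod3, Vstm4, Cdkn1a, Serinc3 and Cnpy3. In 11 of them r was positive, and all 11 kept an r of at least 0.5 without the 2 pairs farthest from the liver median. Nfil3, Nr1d2 and Dbp are parts of the clock and its output.

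Dbp (ENSMUSG00000059824, chr7:45705088-45710203, GRCm38), the D-box activator, varied most among them. In vehicle livers it ran from 1.92 to 38.9 FPKM (median 22.9) and in treated livers from 2.09 to 43.4 (median 10.9). In vehicle muscles it ran from 6.74 to 47.8 FPKM (median 26.6) and in treated muscles from 4.66 to 43.6 (median 11.6). The 5 lowest livers were 2_1, 2_4, 5_1, 5_3 and 5_5, and the 5 lowest muscles were those same 5 numbers. The fifth of them stood at 6.92 FPKM in liver and the next library at 14.9, and in muscle the step was from 8.45 to 15.9. The cut at 5 was chosen after the values were seen, here and for Nr1d2, Nfil3 and Arntl below. Shared numbers therefore restate the values behind r and are no separate support. Treatment groups overlapped over nearly their whole range in both tissues. Pearson r was 0.93 (exact p = 0.000158, adjusted p = 0.247) and Spearman rho 0.87 (exact p = 0.00103, adjusted p = 0.455) over the 12 pairs. It was 0.93 in the 6 vehicle pairs, 0.92 in the 6 treated pairs and 0.91 over 8 pairs. Exons of Sphk2 on the other strand cover 18.01% of the exonic length of Dbp, with strand use in counting not given in the sources used here.

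Nr1d2 (ENSMUSG00000021775, chr14:18204054-18239127) encodes REV-ERBβ, a repressor within the loop. It stood lowest in the same 5 livers and the same 5 muscles as Dbp, with 4.80 to 10.6 FPKM in those livers and 14.1 to 21.8 in the rest. In muscle the 5 lay between 14.7 and 20.2 FPKM and the others between 23.7 and 34.0. Its r was 0.94 (exact p = 7.523e-05, adjusted p = 0.247) and rho 0.88 (exact p = 0.0011, adjusted p = 0.455). Over the 12 livers and the 12 muscles, the genes whose pattern was most like that of Dbp were Nr1d2 (r 0.97 in liver, 0.96 in muscle), Ciart (0.95 and 0.89) and Nceh1 (0.92 and 0.86).

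Nfil3 (ENSMUSG00000056749, chr13:52967209-52981073), the repressor at the D-box, ran the other way. Its 5 highest livers and its 5 highest muscles were again 2_1, 2_4, 5_1, 5_3 and 5_5. In liver these lay between 15.0 and 25.5 FPKM and the others between 4.86 and 12.01, and in muscle between 38.6 and 59.4 against 13.5 to 36.3. Its r was 0.92 (exact p = 4.244e-05, adjusted p = 0.247) and rho 0.92 (exact p = 0.000316, adjusted p = 0.386), and r lay between 0.90 and 0.95 with any 1 pair left out.

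Arntl, the core activator, did not reach the filter in liver and was not tested. Its values ran from 0.139 to 2.61 FPKM in liver and from 0.543 to 4.50 in muscle, and 4 of its 5 highest livers and muscles shared their number (2_1, 2_4, 5_3 and 5_5), the numbers at which Dbp was low. Npas2, a relative of Clock, and Bhlhe41 were also below the filter.

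**Figure D2:**
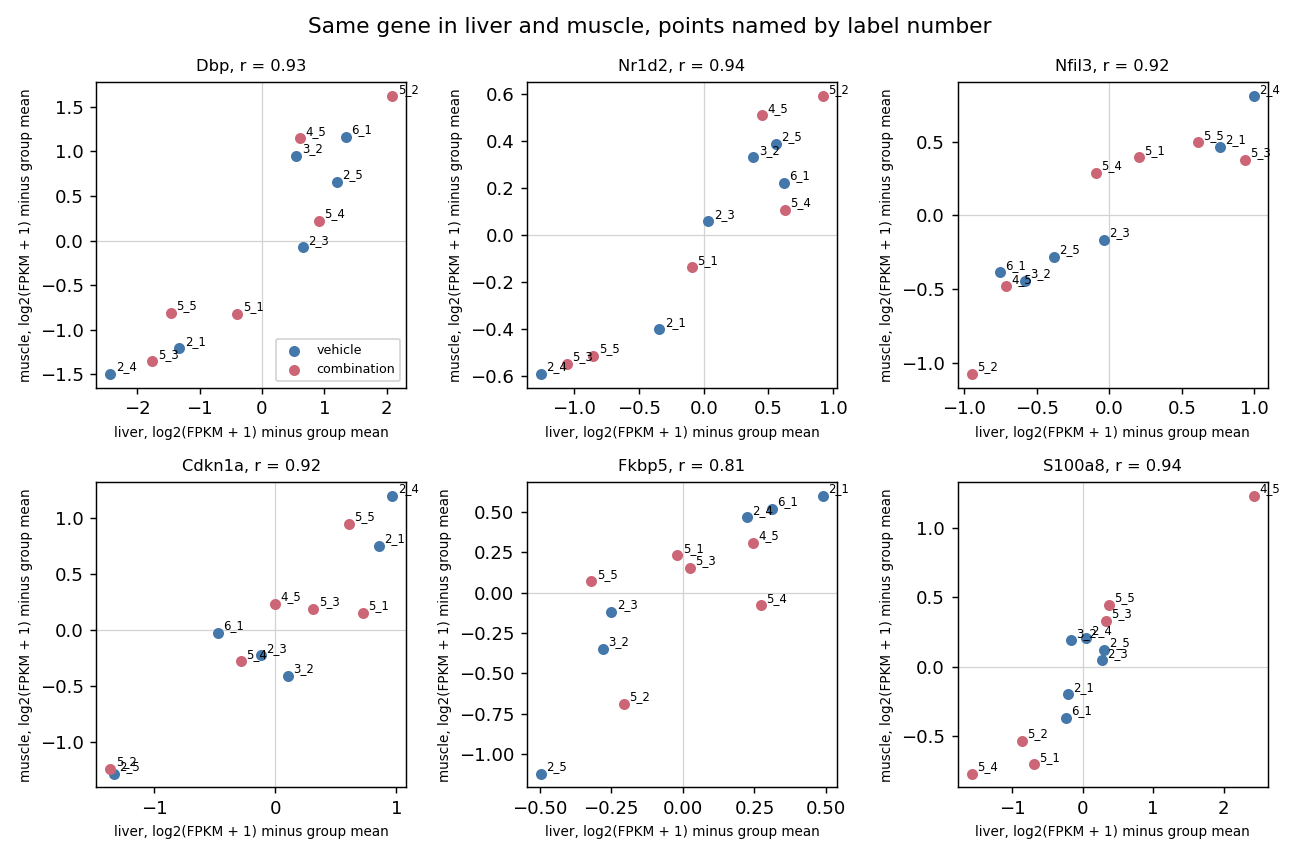
Liver (horizontal) against muscle (vertical) for 6 genes, each axis as log2(FPKM + 1) minus the mean of the treatment group, with points named by label number and coloured by group. Label numbers 2_1, 2_4, 5_1, 5_3 and 5_5 lie at the lower left for Dbp and Nr1d2 and at the upper right for Nfil3, while S100a8 extends to the far upper right at 4_5.

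Nr1d1, which encodes REV-ERBα, lay between 0.93 and 24.9 FPKM in liver and between 9.90 and 56.8 in muscle, with r = 0.77 (rho 0.77). Vehicle 3_2 and 6_1 and treated 4_5 were the 3 highest in both tissues. Over 8 pairs r was 0.97 for Nr1d1. Among the repressors of the loop, r was 0.75 for Per1, 0.65 for Cry1, 0.63 for Ciart and 0.61 for Per3, with adjusted p-values of 0.582 to 0.676. Per2, another repressor, had an r of −0.27 (adjusted p = 0.939) and Cry2 −0.22. Liver 4_5 held 1.16 FPKM of Per2, the lowest liver, while muscle 4_5 held 8.999, and without that pair r was 0.15 for Per2 and 0.47 for Cry2, so both signs turned on pair 4_5. Clock itself had an r of 0.60 and the activator Tef 0.59.

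Of the clock list, 18 of the 21 genes in the tables were tested, 15 with positive and 3 with negative r. Their median r was 0.59, against 0.0742 over all genes. At an unadjusted exact p under 0.05 there were 7 positive and 0 negative members, against 520 and 180 of all 9367 genes. Of the members, 0 passed the adjusted threshold. Over 8 pairs the median was 0.52 with 4 positive members at that unadjusted threshold, against 0.233 with 685 of 9367 over all genes. Rora, a nuclear receptor that activates Arntl, had the lowest r (−0.36).

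Glucocorticoid and fasting genes were mixed. Cdkn1a (ENSMUSG00000023067, chr17:29090979-29100722), the cyclin-dependent kinase inhibitor p21, stood at 11.3 to 59.4 FPKM in vehicle livers (median 29.8) and 8.14 to 37.8 in treated livers (median 25.4). In muscle it stood at 8.70 to 53.4 FPKM (median 20.7) and 9.42 to 46.8 (median 26.8). Numbers 2_5 and 5_2 were the lowest of their groups in both tissues, and 2_4 was the highest vehicle in both. Cdkn1a had r = 0.92 (exact p = 0.00048, adjusted p = 0.346) and rho 0.83 (exact p = 0.00348, adjusted p = 0.509). The genes most like Cdkn1a over the 12 livers and 12 muscles were Baiap2 (0.90 and 0.74), Fam124a (0.84 and 0.76) and Nfil3 (0.77 and 0.78).

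Fkbp5, a co-chaperone of the glucocorticoid receptor that glucocorticoids induce, lay between 10.05 and 20.8 FPKM in liver and between 15.0 and 51.6 in muscle. It was highest at 2_1 and lowest at 2_5 in both tissues, and its r was 0.81 (adjusted p = 0.449). The kinase Sgk1 had an r of 0.93 (adjusted p = 0.396) that rested on pair 5_5: liver 5_5 held 4.93 FPKM and muscle 5_5 12.8, both the lowest of their tissue. Without 5_5 its r was 0.70, over 8 pairs 0.62, and in the 6 vehicle pairs 0.09. Errfi1, a feedback inhibitor of the EGF receptor, had r = 0.78 (adjusted p = 0.513), but rho was 0.41 and r over 8 pairs 0.16. The stress gene Ddit4, an inhibitor of mTORC1, had r = 0.57 and the transcription factor Klf9 0.55, while Cpt1a, which takes fatty acids into mitochondria, had −0.39. Pdk4, which blocks pyruvate oxidation in fasting, had r = 0.06 and Angptl4, a lipase inhibitor, r = 0.13, which was −0.35 without 4_5 and 0.76 over 8 pairs. In liver Pdk4 lay between 2.70 and 11.7 FPKM, and in muscle between 51.0 and 604. Tsc22d3 (GILZ), a glucocorticoid target held in the clock list, had r = 0.20, and −0.07 without 5_5. In the list of glucocorticoid and fasting genes 13 of 18 tested had positive r, with a median of 0.21 (0.37 without 5_5 and 0.39 over 8 pairs). Of them, 4 positive members were at an unadjusted exact p under 0.05. Over all genes 57.8% had positive r, with a median of 0.0742 (0.146 without 5_5 and 0.233 over 8 pairs), and 5.55% were positive at that threshold.

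Mt1, a zinc-binding metallothionein, ran from 63.1 to 1009 FPKM in liver and from 30.8 to 217.6 in muscle. Livers and muscles 5_3 and 5_5 were among the highest, and muscle 5_5 stood far above the others. Its r was 0.83 (adjusted p = 0.346) and its rho 0.91 (adjusted p = 0.386), and r was 0.82 without 5_5. Mt2 had an r of 0.76 (adjusted p = 0.551), but 73.5% of its exonic length lies under a gene on the other strand, and its median was 12 reads in liver.

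Among the remaining leading genes several respond to nutrients or stress. Txnip, which binds thioredoxin and curbs glucose uptake, was 78.1 FPKM in liver 6_1 against 25.3 to 30.6 in the other vehicle livers. Muscle 6_1 was also the highest vehicle muscle of Txnip (413 against 225 to 343), and 4_5 was the highest treated library in both tissues (43.0 FPKM in liver and 424 in muscle). Its r was 0.85 (adjusted p = 0.247) and 0.59 without these 2 pairs, and exons of Gm15441 on the other strand cover 19.4% of its length. Tigar, a fructose bisphosphatase, lay within 3.16 to 4.48 FPKM in liver and 32.7 to 55.6 in muscle, with r = 0.88. Sat1, which acetylates polyamines, was highest at 4_5 in both tissues (71.3 FPKM in liver and 15.7 in muscle), with r = 0.87. Plod3, a collagen lysyl hydroxylase, had r = 0.92 (adjusted p = 0.321) over a range of 5.42 to 7.39 FPKM in liver and 7.14 to 15.6 in muscle. Vstm4, a membrane protein, was the only 1 of the 12 with negative r (−0.76, adjusted p = 0.346): liver 4_5 was the highest (1.62 FPKM) and muscle 4_5 the lowest (1.03). Serinc3, Cep83 and Cnpy3 had r of 0.88, 0.88 and 0.84.

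Transcripts of immune cells formed a further group, and pair 4_5 was the main source of their spread. In bulk tissue fewer cells of a type and less RNA per cell cannot be told apart. S100a8, a subunit of the calprotectin of neutrophils, had the highest r of all 9367 genes (0.94, exact p = 0.00124, adjusted p = 0.346) with rho 0.94 (exact p = 0.00745, adjusted p = 0.565). Treated livers ran from 8.91 to 157.6 FPKM (median 26.7) and treated muscles from 4.12 to 19.4 (median 7.49). Vehicle livers ran from 4.45 to 6.93 FPKM (median 5.20) and vehicle muscles from 2.85 to 4.73 (median 4.25). Number 4_5 was highest in both tissues, followed by 5_5 and 5_3, and without 4_5 the r was 0.89. In the 6 vehicle pairs, where the range is small, it was 0.55. The other neutrophil genes tested were Lcn2 (r 0.89), Retnlg (0.85) and S100a9 (0.62), so that 4 of 4 were positive. At an unadjusted exact p under 0.05 there were 3. Among all genes 57.8% had positive r and 5.55% were positive at that threshold. Only 4 of the 10 genes in the list passed the filter, so the count rests on few genes. The r of S100a9, the other calprotectin subunit, was 0.40 without 4_5, 0.13 without the 2 pairs farthest from the liver median and −0.55 in the 6 vehicle pairs. Of the 10 neutrophil markers, Mpo was listed at 0 in every treated muscle, and the 10 summed to 7.54 to 14.7 FPKM in vehicle muscles and 13.2 to 67.4 in treated muscles, against 82.7 to 132.5 and 98.3 to 1568 in liver.

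Lcn2, a siderophore-binding protein made by neutrophils and by hepatocytes in the acute phase, lay between 40.3 and 1377 FPKM in liver and between 0.879 and 12.01 in muscle. Numbers 5_5, 4_5 and 5_3 were the 3 highest in both tissues and 5_2 the lowest in both. Its r was 0.89 (adjusted p = 0.473), with or without 4_5. Lcn2 is counted in both the neutrophil and the acute phase lists. It made up most of the summed neutrophil markers in every liver but 5_2, so those liver sums do not measure neutrophils alone.

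Macrophage genes had a median r of 0.60, with 12 of 12 positive and 4 at an unadjusted exact p under 0.05. Over all genes 57.8% had positive r and 5.55% were positive at that threshold. Without 4_5 the macrophage median was 0.42, with 11 positive and 3 at that threshold, against 0.0564 with 441 of 9367 over all genes. Over 8 pairs, which keep 4_5, the macrophage median was 0.83, against 0.233 over all genes. Adgre1 (F4/80, ENSMUSG00000004730, chr17:57358686-57483529) was 112 FPKM in liver 4_5 against 14.5 to 17.8 in the other treated livers, and 17.4 in muscle 4_5 against 1.89 to 5.19. In vehicle mice it was 12.1 to 15.7 FPKM in liver and 2.74 to 5.90 in muscle. Its r was 0.85 (adjusted p = 0.379) and 0.63 without 4_5. Csf1r, the receptor for the macrophage growth factor, had r = 0.78, and 0.70 without 4_5. Lyz2, lysozyme, had r = 0.80, and 0.22 without 4_5. Genes most like Adgre1 were Csf1r (0.99 in liver, 0.96 in muscle), Syk (0.98 and 0.94) and Clec4a1 (0.99 and 0.93).

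Carry-over of liver into muscle was measured by albumin. In pair 4_5, muscle held 0.0785% of the albumin of its liver, a share that would bring 0.0879 FPKM of Adgre1 and 0.124 of S100a8, against the 17.4 and 19.4 measured. For Lcn2 in pair 4_5 it would bring 0.852 of 5.89 FPKM.

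Acute phase genes had a median r of 0.53 with 10 of 10 positive and 2 at an unadjusted exact p under 0.05. Over all genes 57.8% had positive r and 5.55% were positive at that threshold. Over 8 pairs the acute phase median was 0.72, against 0.233 over all genes. Hp, the hemoglobin-binding protein haptoglobin, was between 2935 and 12021 FPKM in liver and between 102 and 2221 in muscle. It was highest at 5_5 and lowest at 5_2 in both tissues, with r = 0.82 (adjusted p = 0.438) and 0.30 without those 2 pairs. Of the 22 genes in the list only 10 passed the filter, and the serum amyloid A genes were among those left out. Adipocytes also express haptoglobin, and the mean log2 deviations of the acute phase and adipocyte lists were close in the most extreme muscles: 0.58 and 0.53 in 5_5, −0.83 and −0.89 in 5_2 and −0.42 and −0.44 in 6_1, acute phase first. They parted in other muscles, with 0.16 and 0.47 in 2_3, −0.03 and 0.24 in 5_4, −0.11 and 0.05 in 5_1 and 0.10 and −0.06 in 5_3. The 13 adipocyte markers summed to 1706 to 3056 FPKM in vehicle and 1338 to 3249 in treated muscles, and to 260.4 to 664.9 in liver, where Lep was listed at 0 in every treated library. The part of adipocytes in the acute phase result was not tested.

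Antigen presentation genes of the MHC had a median r of 0.57 with 13 of 13 positive, and 4 at an unadjusted exact p under 0.05. Over all genes 57.8% had positive r and 5.55% were positive at that threshold. H2-Q4 (chr17:35379617-35385290), a class I gene, was 11.2 FPKM in liver 5_2 against 17.5 to 19.6 in the other treated livers, and muscle 5_2 was the lowest at 9.77. In the vehicle group 2_3 was the highest in both tissues (18.6 FPKM in liver and 20.4 in muscle). Its r was 0.78 (adjusted p = 0.346) and its rho 0.90, which had the lowest adjusted p by rank of all genes (0.127). Near-identical class I genes can share reads, and Gm11131 on the other strand covers 19.1% of H2-Q4, so its level is uncertain. H2-Eb1, a class II chain, had r = 0.70. Over 8 pairs the MHC median was 0.80, with 8 of 13 members positive at an unadjusted exact p under 0.05, against a median of 0.233 and 685 of 9367 over all genes. The interferon list, by comparison, had a median of 0.23 with 18 of 24 positive.

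**Figure D3:**
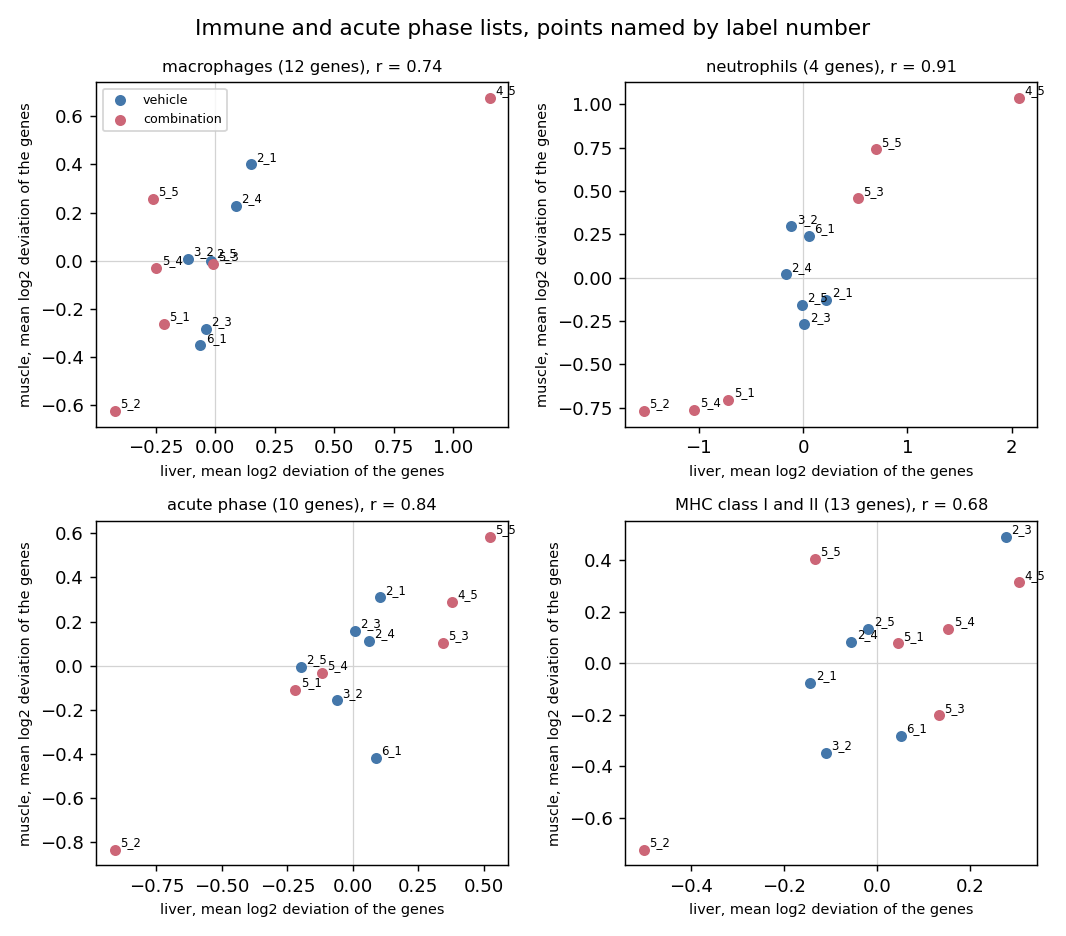
Mean log2 deviation of the tested genes of 4 lists in liver (horizontal) and muscle (vertical), points named by label number and coloured by group. Pair 4_5 lies at the upper right for macrophages and neutrophils, and pair 5_2 at the lower left in all 4 panels.

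Stress lists differed in how far they rested on pair 5_5. Endoplasmic reticulum chaperones had a median r of 0.48 with 15 of 18 positive, but without 5_5 the median was 0.06 with 11 positive, against 0.146 over all genes, and over 8 pairs it was 0.18. Calr, calreticulin, was 382 FPKM in liver 5_5 and 95.6 in muscle 5_5, the highest of each tissue. Its r was 0.74 against 0.42 without 5_5, and that of Pdia3, a disulfide isomerase, was 0.67 against 0.04. Immediate early genes had a median r of 0.40 with 16 of 18 positive, and 0.35 with 16 positive without 5_5. They were led by the phosphatase Dusp1 (r = 0.72, adjusted p = 0.449, and 0.45 over 8 pairs), which was lowest at 5_5 and highest at 5_2 in both tissues. Heat shock genes had a median of 0.12 (0.21 without 5_5 and 0.36 over 8 pairs), with the co-chaperone Dnajb1 at 0.76. Beside these lists, 57.8% of all genes had positive r, and 6068 of 9367 without 5_5. The median over all genes was 0.0742, and 0.233 over 8 pairs.

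Mitochondrial proteins are encoded partly in the mitochondrial genome and mostly in the nucleus. The mitochondrial genome supplied between 3.73% and 6.54% of the reads of a liver and between 5.10% and 10.5% of those of a muscle, and the shares went together over the 12 pairs: r was 0.74 (exact p = 0.00107, adjusted p = 0.00427 over 4 library measures) and rho 0.77 (exact p = 0.00688, adjusted p = 0.0275). Pair 2_1 had the highest share in both tissues. Without the 2 livers farthest from the median r was 0.64. Of the other 3 measures, the share of the 10 most abundant genes had r = 0.61 (adjusted p = 0.105) and rho 0.41 (adjusted p = 0.429), the reads on genes −0.28 (adjusted p = 0.406) and rho −0.14 (adjusted p = 0.680), and the trend with gene length −0.30 (adjusted p = 0.406) and rho −0.26 (adjusted p = 0.579). mt-Nd2, a subunit of complex I, had r = 0.84 (adjusted p = 0.346), and mt-Co1 0.62. The median of the 15 mitochondrial genes was 0.32, with 11 positive, and 0.37 over 8 pairs. All genes had a median of 0.0742 with 57.8% positive, and 0.233 over 8 pairs.

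Nuclear genes of oxidative phosphorylation had the lowest median of the lists with at least 4 genes tested, −0.19, with 9 of 29 positive. Over 8 pairs their median was 0.64 with 26 of 29 positive, against 0.233 and 6388 of 9367 over all genes. Without pair 5_5 alone it was 0.05 with 17 of 29 positive, against 0.146 with 6068 of 9367 over all genes. The sign of this list's median thus turned on 1 pair, but without that pair it was still below the median of all genes. The difference between this list and the mitochondrial genome was not tested. Genes of cytosolic ribosomal proteins had a median of 0.28 with 26 of 29 positive, against 57.8% positive over all genes, and a median of 0.52 over 8 pairs. In muscles 6_1 and 5_5 both lists stood high: their mean log2 deviations were 0.58 and 0.41 in 6_1 and 0.23 and 0.65 in 5_5, oxidative phosphorylation first. With the trend on gene length taken out of each library the medians were 0.06 (15 of 29 positive) and 0.39.

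**Figure D4:**
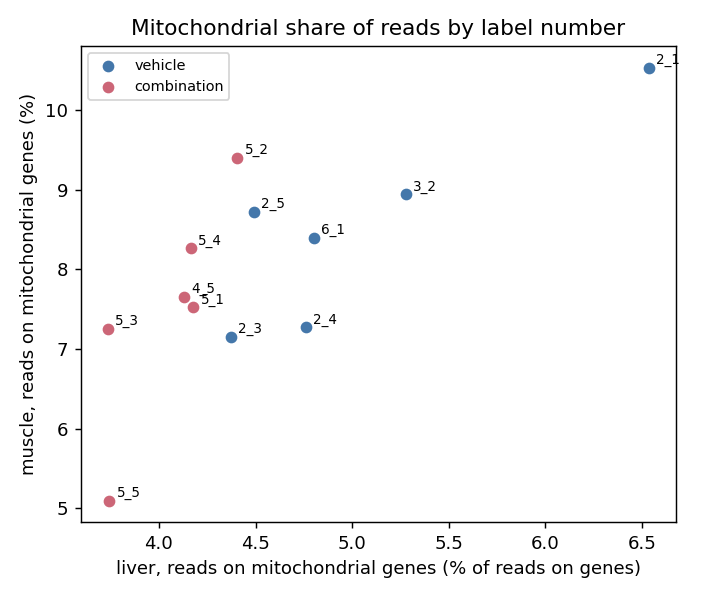
Reads on mitochondrial genes as a percentage of reads on all genes, in liver (horizontal) and in muscle (vertical), 1 point a label number, coloured by group. The point at the upper right is 2_1 with 6.54% and 10.5%, and that at the lower left is 5_5.

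Lipid genes had r values spread around those of all genes. Fatty acid synthesis had a median r of 0.06 (11 of 19 positive), cholesterol synthesis 0.01 (9 of 18), targets of the PPAR receptors 0.03 (12 of 22) and extracellular matrix −0.02 (11 of 23), all near the median of 0.0742 over all genes. Single genes stood apart in both directions. The members ran from −0.58 to 0.66 for fatty acid synthesis, −0.62 to 0.37 for cholesterol synthesis and −0.65 to 0.82 for PPAR targets. At an unadjusted exact p under 0.05 these lists had 1, 0 and 2 positive and 1, 1 and 2 negative members. Of all 9367 genes, 520 were positive and 180 negative there. Elovl6, a fatty acid elongase, had r = 0.66 (adjusted p = 0.427), with 8.15 to 62.5 FPKM in liver and 1.10 to 3.21 in muscle. Srebf1, the lipogenic transcription factor, had r = 0.62 (adjusted p = 0.664). Among the targets of the 2 drugs, the cyclooxygenase Ptgs1 had r = 0.53, the mitochondrial thiolases Hadhb and Acaa2 0.34 and −0.49, and the list a median of 0.15 (3 of 6 positive). Over 8 pairs Hadhb had 0.19, Acaa2 0.12 and the list a median of 0.37 (6 of 6 positive). All genes then had a median of 0.233 with 6388 of 9367 positive.

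**Figure D5:**
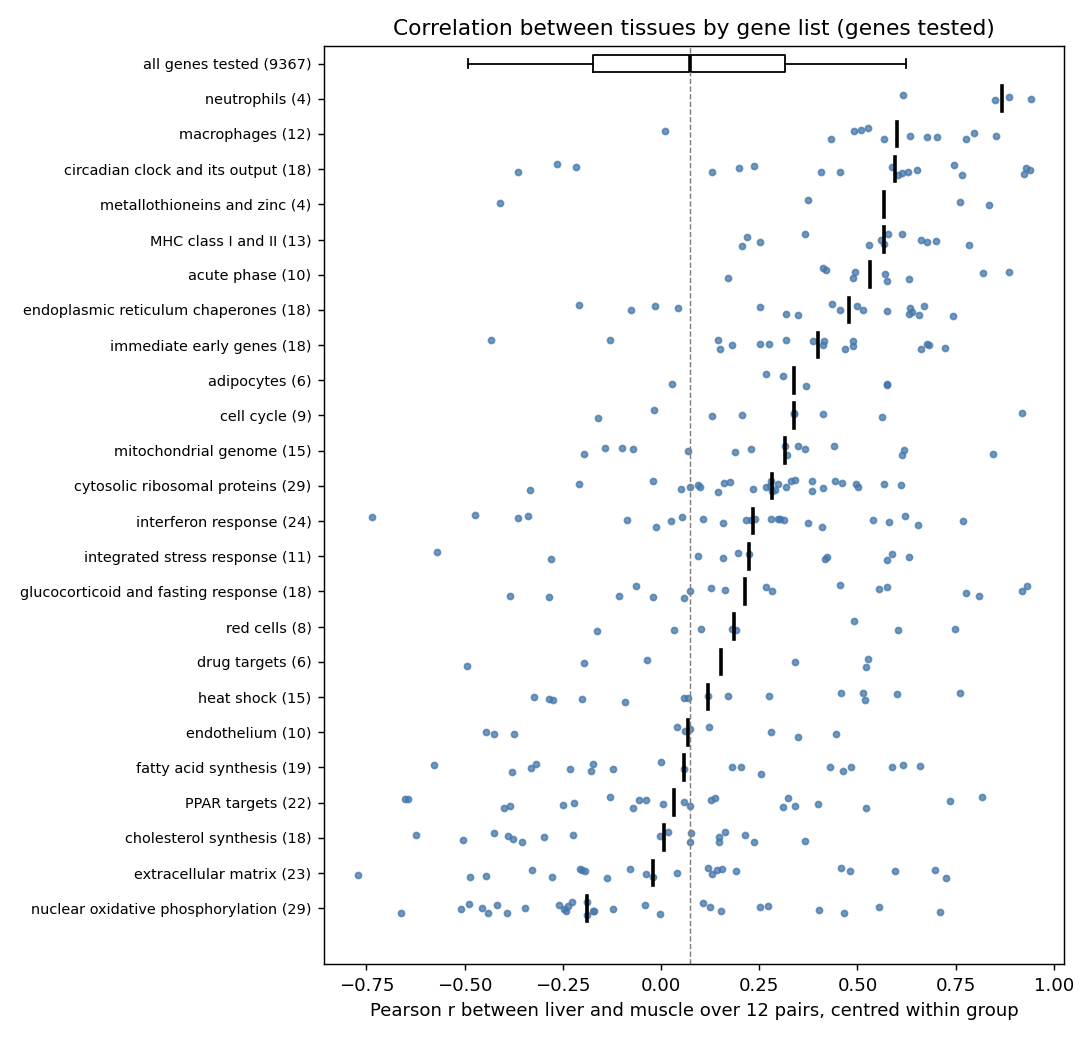
Pearson r between liver and muscle for each tested member (points) of each gene list, with the list median (bar), the number tested in brackets, and above them all 9367 genes (box of the quartiles and median, whiskers from the 5th to the 95th percentile). Medians run from −0.19 for nuclear oxidative phosphorylation to 0.87 for neutrophils, against 0.07 for all genes (dashed line).

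Labels can also be checked by transcripts that should not differ. Xist stayed at or below 0.00584 FPKM in every library and Y-linked Ddx3y lay between 8.23 and 18.5. All labels name male mice. Both gene models named Nnt stayed at or below 0.2 FPKM, as the C57BL/6J strain carries a deletion in this gene. Sex and strain are alike in all the animals, so the presence or absence of these transcripts does not test the pairing. The levels of the Y-linked genes did vary between libraries. Ddx3y had r = 0.60, Eif2s3y 0.58 and Uty 0.43, a median of 0.58 with 3 of 3 positive. Of these, 1 was at an unadjusted exact p under 0.05. For all genes the shares were 57.8% with positive r and 5.55% positive at that threshold. The Y-linked median was about that of the clock and MHC lists (0.59 and 0.57). Without 2_4 the r of Eif2s3y was 0.03.

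Treatment was compared for the same genes. In limma's test of treated against vehicle libraries, 28 of 10840 genes passed an adjusted p under 0.05 in liver (0.258%) and 0 of 11550 in muscle (0%), where 435 had an unadjusted p under 0.05. Of the 28, 2 (Ang and Rnase4, which share exons, with r = 0.66 and 0.58) also had an unadjusted exact p under 0.05 between tissues, against 700 of the 9367 genes tested in both. The 28 passed the filter in liver alone and need not all have been tested in both tissues, so the bases of these shares differ. Dbp differed by −0.59 on the log2 scale between groups in liver (SE 0.75, limma adjusted p = 0.771) and by −0.59 in muscle (SE 0.58, limma adjusted p = 0.999). Cdkn1a differed by −0.40 (SE 0.41) in liver and 0.06 (SE 0.41) in muscle. S100a8 was 2.19 higher in treated livers (SE 0.51, limma adjusted p = 0.117) and 0.81 in treated muscles (SE 0.30, limma adjusted p = 0.999), a difference that centring took out of its r. S100a9 was among the 28, 2.62 higher in treated livers (SE 0.49, limma adjusted p = 0.0428) and 1.91 in treated muscles (SE 0.42, limma adjusted p = 0.804).

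At 24 h, with 1 library a group and no test, Dbp was 53.9 FPKM in the vehicle and 43.6 in the treated liver, and 41.2 and 26.9 in muscle. The 24 h table was normalized separately, so these levels are not set against those at 40 d. Nfil3 was 4.51 and 19.2 FPKM in liver and 29.4 and 34.96 in muscle.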

How the data were processed

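RNA from 12 livers and 12 muscles at 40 d was extracted with Trizol and made into libraries with the NEBNext Ultra kit, per the labels' protocols. The authors deposited a table of FPKM values for each tissue, per the file headers. Per the submitters' processing notes the build was GRCm38, also named mm10, with aligner, counter and strand use not given in the sources used here. These 2 tables were normalized separately, so every value was compared within its table, and centring removes the table's scale. With gene length, 100% of FPKM values gave a whole number of reads within 0.01, and libraries held 16.1 to 19.9 M reads. At this depth short genes near 1 FPKM rest on few reads and their r is limited by counting error. Gene models without Ensembl identifiers (362 in liver, 388 in muscle) were left out, and 0 sample columns were unmapped.

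The filter kept genes at 1 FPKM or more in at least 6 libraries of each tissue. log2(FPKM + 1) was centred within group and tissue. Each gene got a Pearson r over 12 pairs and a two-sided exact p from all 518400 pairings within group, with Benjamini-Hochberg adjustment over 9367 genes at 0.05. Spearman's rho was treated likewise. Groups were compared with limma's moderated test with trend (limma 3.58.1, R 4.3.3). Other work used NumPy 2.4.6, SciPy 1.17.1, pandas 2.3.3 and matplotlib 3.10.9 under Python 3.11.15. The correlation test was tested on simulated reads.

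The members and lists were chosen with earlier results of these data known. The naming rule took called genes, or, as fewer than 10 were called, the 12 with the smallest exact p, the 2 members with the highest r in each list of at least 5 genes tested, and a fixed set (Per1, Per2, Dbp, Nr1d1, Arntl, Ciart, Tsc22d3, Fkbp5, Cdkn1a, Pdk4, Angptl4, Mt1, Mt2, Ddx3y, Nnt and others). Nr1d2, Per3, Cry1, Cry2, Clock, Tef, Rora, Npas2, Bhlhe41, Errfi1, Ddit4, Klf9, Cpt1a, S100a8, S100a9, Retnlg, Csf1r, Sgk1, Hadhb, Acaa2, Ang and Rnase4 are named as list members or were chosen after their values were seen. The genes most alike are the 3 with the highest product of r with the gene in liver and in muscle. Not every gene the rule allows is named.

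Replicate numbers come from the labels. By the criterion that every pair deviates together with r over 0.1, met in 7 of 12 pairs, the numbers are not shown to pair the samples. Libraries with different numbers are taken as separate animals as far as the labels say. The exact p-values give the share of pairings within group whose value is at least as extreme. Those of limma rest on the spread between the libraries of a group. Alternatives were Spearman's rho, pseudocount 0.1, other filters, leaving out each pair, no centring, centring within first digit, removal of the first principal component, a trend on gene length and 8 pairs (the last 2 chosen after seeing the data), and recovered reads as log2 CPM with TMM factors, which were computed in Python.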

Additional observations from a re-analysis of the deposited data

Results flagged for a closer look

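Of 224 groups of 6 libraries examined (the genes whose values are given, in each tissue and group, and library measures), 34 had 1 library far from the other 5, by the gap to its nearest neighbour over the whole range (Dixon's ratio). About 1 in 20 groups of normally distributed values would meet this by chance. The ratio was taken on FPKM without logs, and many of these genes were named after their values were seen. The count of 34 is therefore not set against that rate, and genes of 1 library are not independent. Most of the 34 belonged to label numbers 4_5 and 5_5.

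Liver 4_5 accounted for 10 of them. It was high in Adgre1 (111.97 FPKM against 14.5 to 17.8 in the other treated livers), Csf1r (77.168), Lyz2 (1616), S100a8 (157.58), S100a9 (246.46), Retnlg (25.819), Ptgs1 (16.085), Serinc3 (115.1) and Angptl4 (46.968), and held 0.23588 FPKM of the muscle gene Ckm. Muscle 4_5 accounted for 7. It was high in Adgre1 (17.369), Csf1r (23.711), Lyz2 (381.85), Txnip (423.98), Pdk4 (603.97) and Alb (14.213), and low in Vstm4 (1.0277). Adgre1, Csf1r and Lyz2 were thus far out in both tissues of number 4_5.

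Muscle 5_5 accounted for 6, with high Hp (2220.6 FPKM), Mt1 (217.65), Calr (95.591), Pdia3 (56.423) and Cnpy3 (10.847) and low Ddx3y (14.086). Liver 5_5 was low in mt-Nd2 (3950.9). For number 5_2, the liver was low in H2-Q4 (11.172) and the muscle high in Ckm (4805.9).

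In the vehicle group, liver 6_1 was high in Txnip (78.148) and muscle 6_1 in Sat1 (15.029) and Acaa2 (299.53). Muscle 2_1 was high in Cep83 (3.3674) and Lcn2 (2.5915), muscle 2_3 in H2-Q4 (20.422) and muscle 3_2 in Alb (98.029). Liver 2_3 had fewer reads on genes (17.2 M) than the other vehicle livers (18.3 to 18.8 M).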

How the results depend on the processing

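The count of genes past the adjusted threshold was 0 in every alternative run. The mean profile correlation of same-numbered libraries (0.0856, exact p = 0.0715) passed an unadjusted threshold of 0.05 under 4 settings that kept every pair. These were a mean of at least 5 FPKM (0.120, p = 0.0239), no centring (0.0940, permutation p = 0.0154), without the first principal component (0.127, p = 1.929e-06) and without the trend on gene length (0.108, p = 0.00911). With no centring, mean differences between the groups that both tissues share also enter the value, so that setting does not isolate the pairing. Over 8 pairs the mean profile correlation was 0.181 (exact p = 0.00174), but the 4 pairs left out were those below 0, so that choice fixed its direction. Leaving out 1 pair gave 0.0366 (without 2_1) to 0.123 (without 5_5), and it passed without 2_3, 5_3 or 5_5. The median r over all genes (0.0742) was 0.0337 with no filter, 0.156 without the principal component, 0.233 over 8 pairs and 0.118 without the length trend, and 0.0069 (without 2_1) to 0.146 (without 5_5) with 1 pair left out. limma's correlation within the label number as a replicate block had a median of 0.0665 (consensus 0.0691), close to the median r. Liver calls by treatment were 28, and 25 with a pseudocount of 0.1.

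Of 1160 values of r for 51 named genes under an alternative, 18 had the opposite sign to the main value, in 8 genes, and 0 passed the adjusted threshold; the cause was not tested. Spearman's rho of Pdk4 was −0.126. Within the first digit of the label number (9 pairs) Per2 had r = 0.207, Pdk4 −0.0759 and Angptl4 −0.579. Without the first principal component Tsc22d3 had −0.0949 and Acaa2 0.291. Over 8 pairs Pdk4 had −0.0947 and Acaa2 0.122. Without the 2 pairs farthest from the liver median r was −0.136 for Pdia3, −0.046 for Lyz2, 0.202 for Per2, −0.461 for Angptl4 and −0.0999 for Eif2s3y. With 1 pair left out, r ran from −0.39 (without 5_4) to 0.153 (without 4_5) for Per2, −0.0696 (5_5) to 0.357 (5_3) for Tsc22d3, −0.165 (2_3) to 0.216 (5_2) for Pdk4 and −0.352 (4_5) to 0.422 (5_5) for Angptl4.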
